A study of Mus musculus with 2 samples.

Results

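The interstitial matrix genes of fibroblasts were compared between mouse embryonic stem (ES) cells carrying a constitutive knockout of Eed (Eed KO) and the control ES cells of that knockout. The members were chosen by symbol: 42 named genes for interstitial collagens, elastic fibre proteins, proteoglycans, crosslinking enzymes and fibroblast surface markers. They were represented by 88 of the 34945 probe sets with a single gene symbol, out of 45101 on the array, which stood for 39 of 18193 genes. Each group was 1 Affymetrix MOE430 2.0 array hybridized with labelled RNA from bulk cells. With 1 array per group no SD, standard error or test was possible, and every difference below is a difference between these 2 arrays. Eed is a subunit of Polycomb repressive complex 2, and the study set this knockout beside knockouts of Ring1A and Ring1B, proteins of the other Polycomb complex. Those samples are not analysed here. How Eed was disrupted is not stated in the labels, nor whether both lines had the same parent or were single clones, or whether feeder cells were present in culture or RNA.

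The interstitial matrix is the collagen and elastic scaffold that mesenchymal cells secrete around themselves. Fibrillar collagens form its cables. Fibulins, fibrillins and microfibril proteins organise elastin into fibres, lysyl oxidases crosslink both, and small leucine-rich proteoglycans coat and space the fibrils. Fibroblasts are the main source of this matrix, whereas ES cells are epithelial-like cells that assemble mostly a laminin-rich basement membrane.

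Most of these genes had higher signals in the Eed KO, but not by a shared ratio. A signal is the MAS5 summary of a probe set on a linear scale, and a gene with several probe sets is given by the brightest of them, on the mean of the log2 signals. A floor of 61.3 was set under all signals before a ratio was taken, and a gene was measured when it was above that floor on at least 1 array. A raised floor, the 60th percentile of signals in place of the 40th, was also tried. Of the 39 genes 35 were measured, and 22 of them had an Eed KO signal at least 2-fold higher, the size used here for a call. Across all 13794 measured genes 10.8% were called higher. None of the 35 was at least 2-fold lower, where 3.27% of all measured genes were. A ratio above 1 was seen for 31 of the 35, beside 8126 of the 13794 measured genes. The median log2 ratio, Eed KO over control, was 1.19 for the matrix genes and 0.12 for all measured genes.

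**Figure D1:**
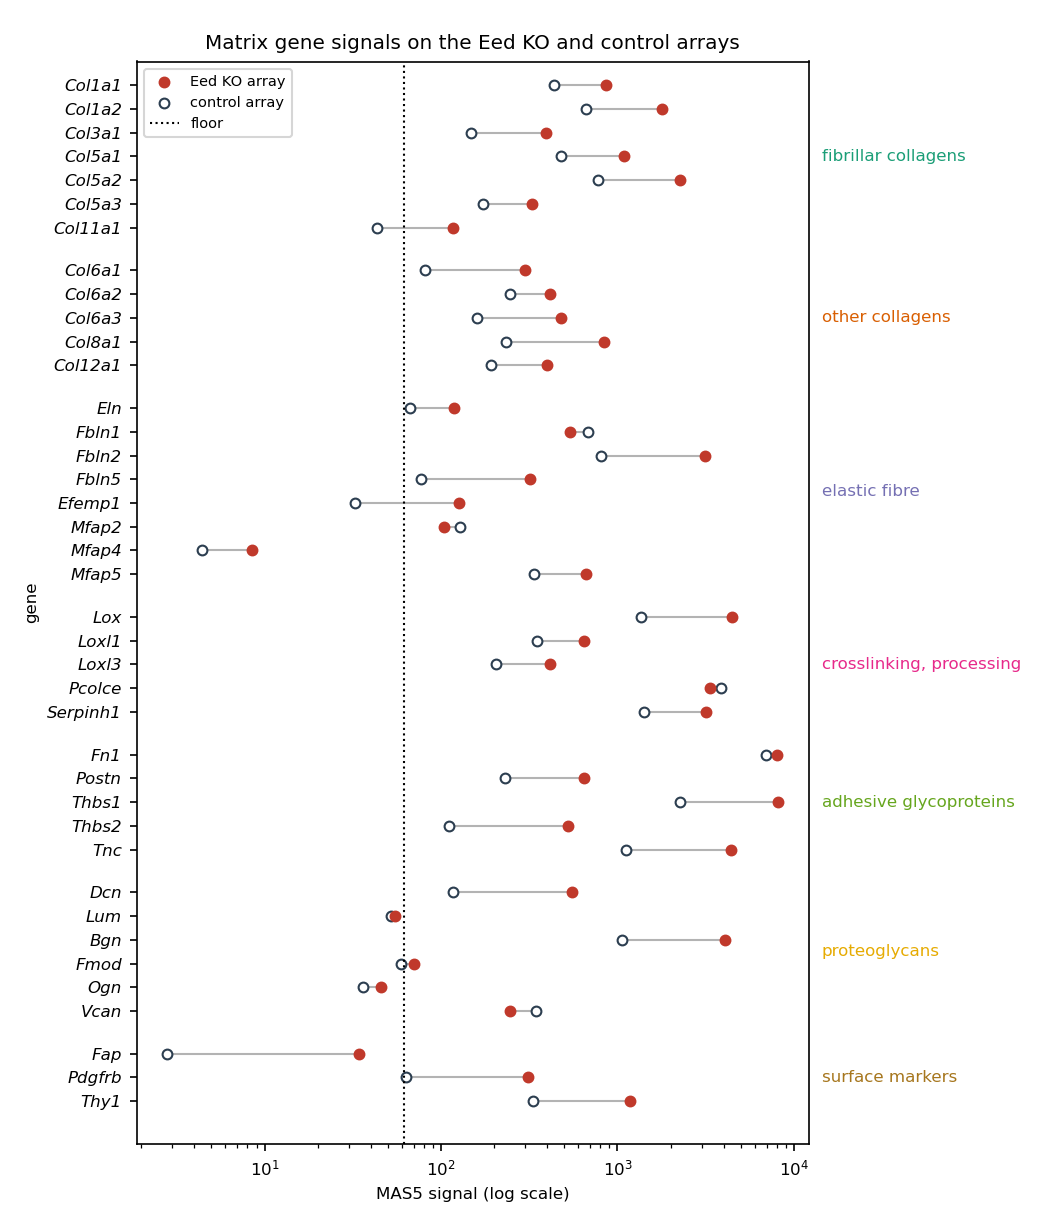
MAS5 signal (log scale) of each of the 39 matrix genes on the Eed KO array (filled) and the control array (open), grouped by role, with the floor of 61.3 dotted. The Eed KO point lies to the right of the control point in most rows, and Fap, Lum, Mfap4 and Ogn stay under the floor.

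The excess was present at both low and high signal. Among genes with a mean signal under 613.0, which is 10 times the floor, 12 of 22 matrix genes were called higher, beside 14.5% of all measured genes in that range. Among brighter genes 10 of 13 were called higher, beside 5.64%. In all, 3 of the 35 were above the floor in the Eed KO alone, so that their direction was fixed by the floor. Of the 32 above the floor on both arrays 21 were at least 2-fold higher, beside 9.89% of all such genes, and again none was lower, beside 3.39%. A change of at least 3-fold was seen for 12 of the 35 (3.53% of all measured genes) and of at least 4-fold for 4 (1.58%). Counted by probe set, 34 of 62 measured matrix probe sets were at least 2-fold higher and 0 lower, beside 9.8% and 3.47% of all measured probe sets with 1 symbol.

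**Figure D2:**
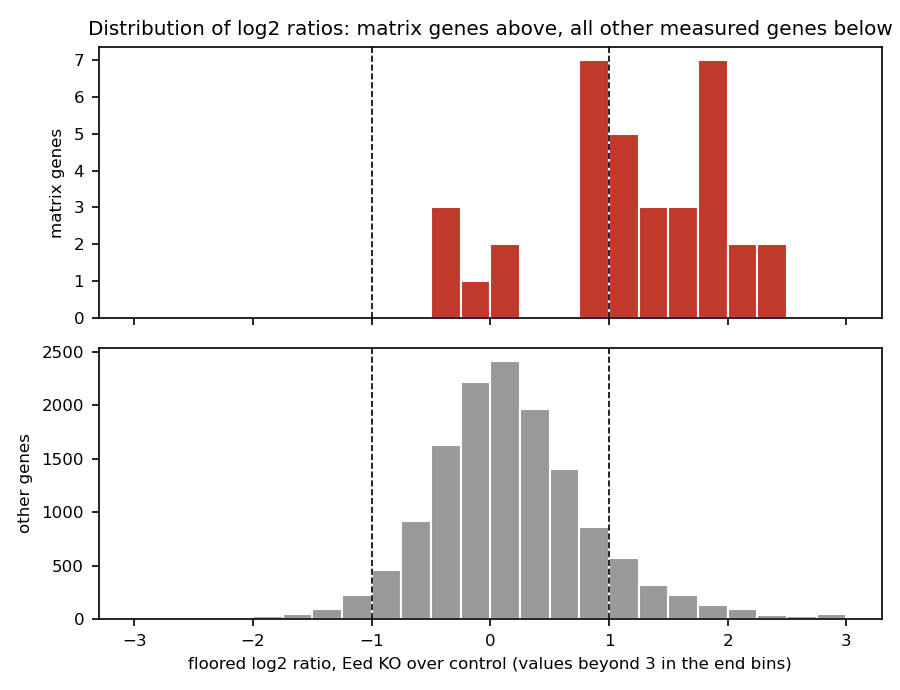
Number of genes per bin of the floored log2 ratio, Eed KO over control, for the 35 measured matrix genes (top) and all other measured genes (bottom), with 2-fold marked by dashed lines. The matrix genes form a broad group at and above the upper line and a separate small group near 0, while the other genes centre close to 0.

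Promoter sequences are shown for a few members, so that the starts of genes with high and low ratios can be compared. RefSeq promoter windows of assembly GRCm38.p6, from 250 bases before to 50 bases after a transcript start, were matched by symbol for 25 of the 42 genes (33 windows). The 5 windows below belong to Thbs2, Bgn and Col6a1, which were at least 3-fold higher, and to Pcolce and Vcan, which had ratios below 1. They are examples: other members with windows had higher ratios than Bgn and Col6a1 (Fbln5, Tnc and Fbln2) or lower ones than Pcolce (Fbln1 and Mfap2). They lie at chr17:14694213-14694512 (minus strand) for Thbs2, chrX:73483351-73483650 (plus strand) for Bgn, chr10:76725995-76726294 (minus strand) for Col6a1, chr5:137611355-137611654 (minus strand) for Pcolce and chr13:89742463-89742762 (minus strand) for Vcan. Capitals mark matches on either strand to 4 motifs: the TATA box (TATAAA), the CCAAT box (CCAAT), the GC box (GGGCGG) and the AP-1 motif (TGANTCA). No other motif was searched.
Thbs2: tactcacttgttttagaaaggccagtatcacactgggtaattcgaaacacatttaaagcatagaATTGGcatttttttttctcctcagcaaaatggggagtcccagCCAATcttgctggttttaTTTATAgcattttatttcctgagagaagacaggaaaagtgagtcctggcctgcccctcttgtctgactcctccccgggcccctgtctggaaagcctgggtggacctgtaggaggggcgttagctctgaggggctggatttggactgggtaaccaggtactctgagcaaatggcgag
Bgn: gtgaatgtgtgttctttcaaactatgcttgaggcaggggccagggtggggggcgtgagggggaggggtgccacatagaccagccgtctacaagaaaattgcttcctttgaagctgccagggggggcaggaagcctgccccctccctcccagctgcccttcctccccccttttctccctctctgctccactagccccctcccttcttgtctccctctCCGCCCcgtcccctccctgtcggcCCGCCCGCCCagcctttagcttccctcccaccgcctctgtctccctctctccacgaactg
Col6a1: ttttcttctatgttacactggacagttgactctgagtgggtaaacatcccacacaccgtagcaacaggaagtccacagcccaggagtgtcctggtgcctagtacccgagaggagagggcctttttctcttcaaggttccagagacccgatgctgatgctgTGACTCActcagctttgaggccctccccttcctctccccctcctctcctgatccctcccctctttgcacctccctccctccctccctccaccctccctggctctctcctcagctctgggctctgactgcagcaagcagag
Pcolce: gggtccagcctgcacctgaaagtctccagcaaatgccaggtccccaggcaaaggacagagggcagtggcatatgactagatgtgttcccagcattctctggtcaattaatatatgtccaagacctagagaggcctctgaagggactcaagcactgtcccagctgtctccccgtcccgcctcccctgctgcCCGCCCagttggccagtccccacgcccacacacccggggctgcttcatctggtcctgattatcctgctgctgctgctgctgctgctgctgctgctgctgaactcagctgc
Vcan: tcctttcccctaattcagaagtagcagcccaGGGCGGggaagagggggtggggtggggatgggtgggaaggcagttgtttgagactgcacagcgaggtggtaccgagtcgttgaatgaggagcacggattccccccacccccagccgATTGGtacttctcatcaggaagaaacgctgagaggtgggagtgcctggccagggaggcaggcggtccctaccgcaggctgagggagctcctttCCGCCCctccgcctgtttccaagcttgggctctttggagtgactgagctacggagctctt
The Thbs2 window held 2 matches to CCAAT and 1 to TATAAA on the opposite strand. The Bgn window held 3 GC boxes, of which a pair overlapped, and the Col6a1 window the AP-1 motif 90 bases before the start. Pcolce had 1 GC box, and Vcan 2 GC boxes and 1 CCAAT match.

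Over all 33 windows the matrix genes had GC boxes in 22 (66.7%), beside 35.7% of all 32851 promoter windows and 59.5% of the windows of measured genes. The 33 hold more than 1 window for some genes, and include those of Efemp2, Fbn1 and Ogn, which have no measured ratio. GC boxes were in 10 of the 17 windows of members at least 2-fold higher (58.8%) and in 8 of the 11 of members within 2-fold (72.7%). TATAAA was found in 6 (18.2%), beside 13.6% of all windows and 7.94% of those of measured genes. CCAAT was found in 9 (27.3%), beside 37.4% of all windows and 37.4% of those of measured genes. TGANTCA was found in 2 (6.06%), beside 7.81% of all windows and 5.51% of those of measured genes. The ratio of observed to expected CpG dinucleotides had a median of 0.470 in the matrix windows, 0.384 in all windows and 0.721 in the windows of measured genes. It ranged from 0 for Col3a1, whose window has a GC content of 37.7%, to 0.916 for Efemp2. The median was 0.457 in the 17 windows of members at least 2-fold higher and 0.441 in the 11 windows of members within 2-fold. A match is a description of these letters and not a binding site.

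Fibrillar collagens had the most even ratios. All 7 had a ratio above 1 and 4 were at least 2-fold higher, with log2 ratios between 0.92 and 1.54 and an SD of 0.26 over the genes. Type I collagen, the main collagen of skin, tendon and bone, is built from the chains encoded by Col1a1 and Col1a2. Col1a2 read 1782 in the Eed KO and 663.4 in the control, which is 2.69-fold higher, and its other measured probe set had a log2 ratio of 0.81. Col1a1 read 857.1 in the Eed KO and 434.3 in the control, just under the 2-fold limit at 1.97-fold, and its other probe set had a log2 ratio of at least 1.24. The ranges of the probe sets of Col1a1 and Col1a2 overlapped.

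Col3a1, whose type III collagen mixes with type I in soft tissues, read 395.6 in the Eed KO and 148.6 in the control (2.66-fold higher). Type V collagen starts fibril formation and sets fibril diameter. Its Col5a2 chain read 2273 in the Eed KO and 779.5 in the control (2.92-fold higher), and a fainter probe set for it gave 2.83-fold. Its Col5a1 chain read 1087 in the Eed KO and 477.4 in the control (2.28-fold higher). The other measured Col5a1 probe sets had log2 ratios of 0.97 and of at least 0.50, and the gene was under 2-fold as the mean over probe sets. Its Col5a3 chain read 326.8 in the Eed KO and 172.7 in the control (1.89-fold). The minor fibril chain gene Col11a1, best known from cartilage, read 116.6 in the Eed KO and was under the floor in the control at 43.4, so its ratio was at least 1.90.

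Of the other interstitial collagens 4 of 5 were at least 2-fold higher. Type VI collagen makes the beaded filaments around cells, from 3 chains in equal parts. Col6a1 read 300.0 in the Eed KO and 81.3 in the control (3.69-fold higher), and had a log2 ratio of 0.84 under the raised floor, under 2-fold. Col6a3 read 477.5 in the Eed KO and 159.2 in the control (2.999-fold higher). Col6a2 read 416.7 in the Eed KO and 246.6 in the control (1.69-fold), and 2.20-fold, a log2 ratio of 1.14, by its other probe set. By their main probe sets and the main floor the 3 chain genes did not share 1 ratio. Given the other Col6a2 probe set and the raised floor for Col6a1, a difference between them is not settled. The network collagen gene Col8a1 read 843.5 in the Eed KO and 232.0 in the control (3.64-fold higher), with the other probe sets at log2 ratios of at least 0.76 and of 1.48. Col12a1, whose product bridges neighbouring fibrils, read 400.8 in the Eed KO and 191.0 in the control (2.10-fold higher), with a log2 ratio of 1.77 by its other measured probe set. By its main probe set it was under 2-fold in each of the other scalings.

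Elastic fibre genes were split. Of 7 measured, 3 were at least 2-fold higher, and their log2 ratios spread over -0.33 to 2.05 (SD 0.95). Fbln5, a fibulin that ties elastin to microfibrils and to cells, read 317.5 in the Eed KO and 76.9 in the control (4.13-fold higher), but had a log2 ratio of 0.92 under the raised floor, under 2-fold. Fbln2 read 3128 in the Eed KO and 802.7 in the control (3.90-fold higher). Fbln1, the third fibulin of this group, had a ratio below 1 on its main probe set, at 541.4 in the Eed KO and 681.8 in the control (log2 ratio -0.33). Its other 2 probe sets had log2 ratios of at least 0.30 and of 0.69, so the direction for Fbln1 is not settled.

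Efemp1, which encodes fibulin-3, read 127.2 in the Eed KO and was under the floor in the control at 32.5, at least 2.08-fold higher, with a bound under 2-fold in 4 other scalings. Elastin itself (Eln) was dim, at 118.0 in the Eed KO and 66.3 in the control (1.78-fold). The microfibril glycoprotein genes differed from each other. Mfap2 read 103.5 in the Eed KO and 128.7 in the control (log2 ratio -0.31). Mfap5 read 659.1 in the Eed KO and 335.8 in the control (1.96-fold), but its other probe set had a log2 ratio of -0.06. Mfap4 stayed under the floor, at 8.5 in the Eed KO and 4.4 in the control. Fbn1 and Efemp2 are not analysed here.

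Among crosslinking and processing genes 3 of 5 measured were at least 2-fold higher. Lox, the lysyl oxidase that crosslinks collagen and elastin, read 4454 in the Eed KO and 1355 in the control (3.29-fold higher). A bright probe set of the same gene had a log2 ratio of 1.73 beside 1.72, and a dim one had at least 0.34. Of its relatives, Loxl3 read 413.8 in the Eed KO and 203.6 in the control (2.03-fold), and was under 2-fold in each of the other scalings. Loxl1 read 645.7 in the Eed KO and 349.0 in the control (1.85-fold). Loxl2 was carried only by probe sets assigned to more than 1 gene and is not named here. Serpinh1, the collagen chaperone of the endoplasmic reticulum, read 3167 in the Eed KO and 1405 in the control (2.25-fold higher), with 1.18 as the log2 ratio of its other probe set, and was under 2-fold in 2 other scalings. Pcolce, which enhances removal of the procollagen C-propeptide, was high on both arrays, at 3364 in the Eed KO and 3884 in the control. Both of its probe sets were below a ratio of 1, at log2 ratios of -0.21 and -0.29.

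The adhesive glycoproteins held 4 of the called genes among 5. The thrombospondin gene Thbs1, a matricellular activator of latent TGF-beta, read 8119 in the Eed KO and 2273 in the control (3.57-fold higher), and its other probe set had a log2 ratio of 2.09. Thbs2, whose loss in mice gives abnormal collagen fibrils, read 521.7 in the Eed KO and 110.3 in the control (4.73-fold higher), with its other probe sets at log2 ratios of 1.36 and 2.33. Tnc, for the wound and tendon glycoprotein tenascin-C, read 4402 in the Eed KO and 1118 in the control (3.94-fold higher, log2 ratio 0.82 by a dim probe set). Postn, for periostin, read 649.2 in the Eed KO and 230.9 in the control (2.81-fold higher). Fibronectin (Fn1), which many cell types secrete, stood apart. Fn1 read 8070 in the Eed KO and 6959 in the control (1.16-fold), and its other probe set had a log2 ratio of -0.32.

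The proteoglycans fell at both ends of the order. Decorin (Dcn) binds collagen fibrils and TGF-beta, and it read 554.1 in the Eed KO and 116.3 in the control (4.76-fold higher). Biglycan (Bgn), its X-linked relative, read 4093 in the Eed KO and 1058 in the control (3.87-fold higher). Its other 2 probe sets had log2 ratios of 1.95 and 2.02, the closest repeats of any called gene with 3 measured probe sets. Vcan, for the large hyaluronan-binding proteoglycan versican, had the lowest ratio of all measured members, at 247.3 in the Eed KO and 345.4 in the control. All 3 of its measured probe sets were below a ratio of 1. Their log2 ratios were -0.48, -0.12 and, with the Eed KO signal under the floor, -0.54 or lower. Lum and Ogn, small leucine-rich proteoglycan genes of differentiated connective tissue, were under the floor on both arrays. Lum read 54.8 in the Eed KO and 52.1 in the control. Ogn read 45.5 in the Eed KO and 35.9 in the control. Fmod, of the same family, barely passed the floor in the Eed KO at 70.3 and read 59.1 in the control.

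Of the 3 surface markers of fibroblasts and pericytes 2 were measured, and both were at least 2-fold higher, at ranks 1 and 11 of the 35 measured members. Pdgfrb, the receptor for PDGF-B, read 312.7 in the Eed KO and 63.6 in the control, the highest ratio of the measured members at 4.92-fold. As the control signal was close to the floor, that rank depends on it. Under the raised floor the log2 ratio of Pdgfrb was 0.89, under 2-fold and below those of Tnc and Fbln2. It was also below the median of 1.18 that the measured members had there. Its other probe set was above the floor in the Eed KO alone, at a log2 ratio of at least 0.86. Thy1, a glycolipid-anchored surface protein of fibroblasts, neurons and thymocytes, read 1182 in the Eed KO and 331.5 in the control (3.57-fold higher). Fap, the fibroblast activation protein, stayed under the floor, at 34.5 in the Eed KO and 2.8 in the control.

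**Figure D3:**
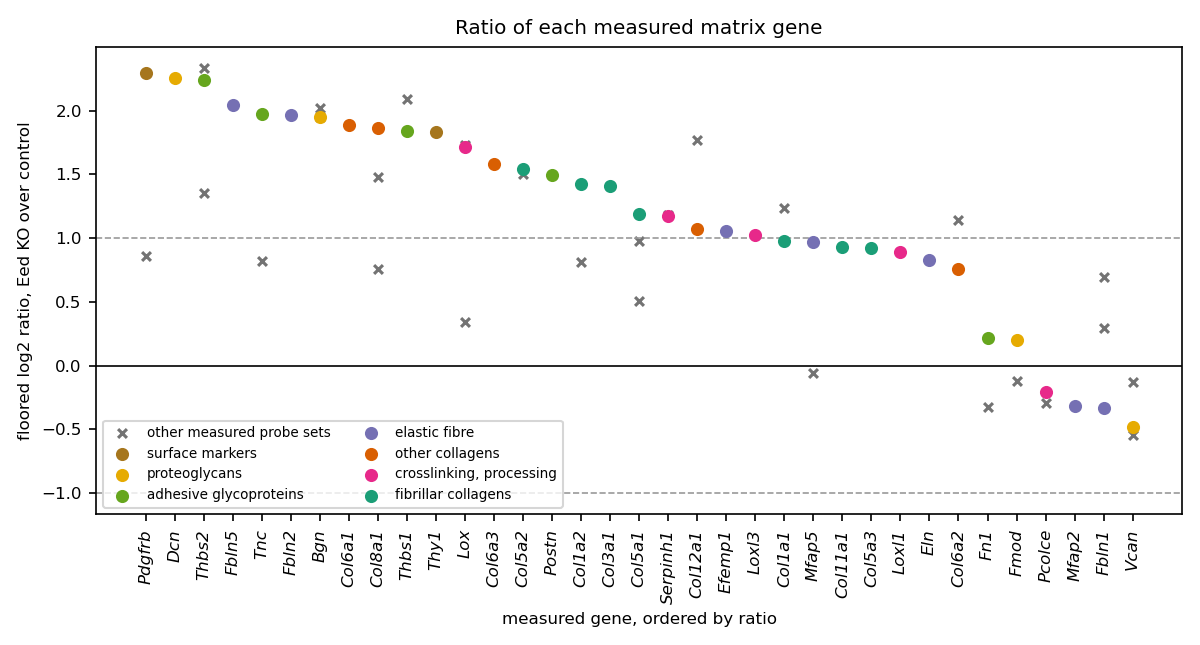
Floored log2 ratio, Eed KO over control, of the 35 measured matrix genes in falling order (coloured by role), with the other measured probe sets of the same gene as crosses and 2-fold marked by dashed lines. Ratios run from 2.30 (Pdgfrb) to -0.48 (Vcan), with a step between Col6a2 at 0.76 and Fn1 at 0.21.

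The set was also assembled to ask how uniform its ratios are, and over all measured members they were not uniform. Their SD over the 35 measured genes was 0.78 on the log2 scale, beside 0.71 for all measured genes. For the 17 members with at least 2 probe sets that passed the floor on each array (36 probe sets), the SD within a gene was 0.41 and the SD between gene means was 0.78. Over these 17 members the differences between genes were thus larger than those between probe sets of 1 gene. Probe sets of 1 gene are the only repeated measurement here, which covers technical and isoform spread. In order of ratio the widest step, 0.54 on the log2 scale, left 6 genes at -0.48 to 0.21 (Vcan, Fbln1, Mfap2, Pcolce, Fmod and Fn1). The other 29 lay between 0.76 and 2.30, which is 1.69-fold to 4.92-fold, with a median of 1.49 and an SD of 0.49. The spread among these 29 was thus close to the SD of 0.41 within a gene. That step was found in the ordered values and carries no test. For the 12 called genes with further measured probe sets, all 17 of those probe sets had a ratio above 1, and 10 were at least 2-fold higher. The dimmest of Col5a1, Col8a1 and Lox and that of Pdgfrb were above the floor in the Eed KO alone, so their direction was fixed. The genes were chosen because they were called, and no such share was computed for other called genes, so this is a description only.

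Just above the step, 7 genes lay between 1.5-fold and 2-fold higher: Col1a1, Mfap5, Col11a1, Col5a3, Loxl1, Eln and Col6a2. The control array already held signal for most of the set, with 32 of 39 genes above the floor there and 35 of 39 in the Eed KO. Those 32 were above the floor on both arrays, as were 11815 of all 18193 genes. Over the 32 matrix genes that passed the floor on both arrays, the log2 ratio and the log2 control signal had a Pearson r of -0.26 and a Spearman rho of -0.22. Over all 11815 such genes these were -0.38 and -0.41. The control signal enters both axes, all points come from the same 2 arrays, and probe sets differ in affinity, so this is a description only. The genes near a ratio of 1 included Fn1 and Pcolce, at control signals of 6959 and 3884, but also Mfap2 and Vcan, at 128.7 and 345.4.

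**Figure D4:**
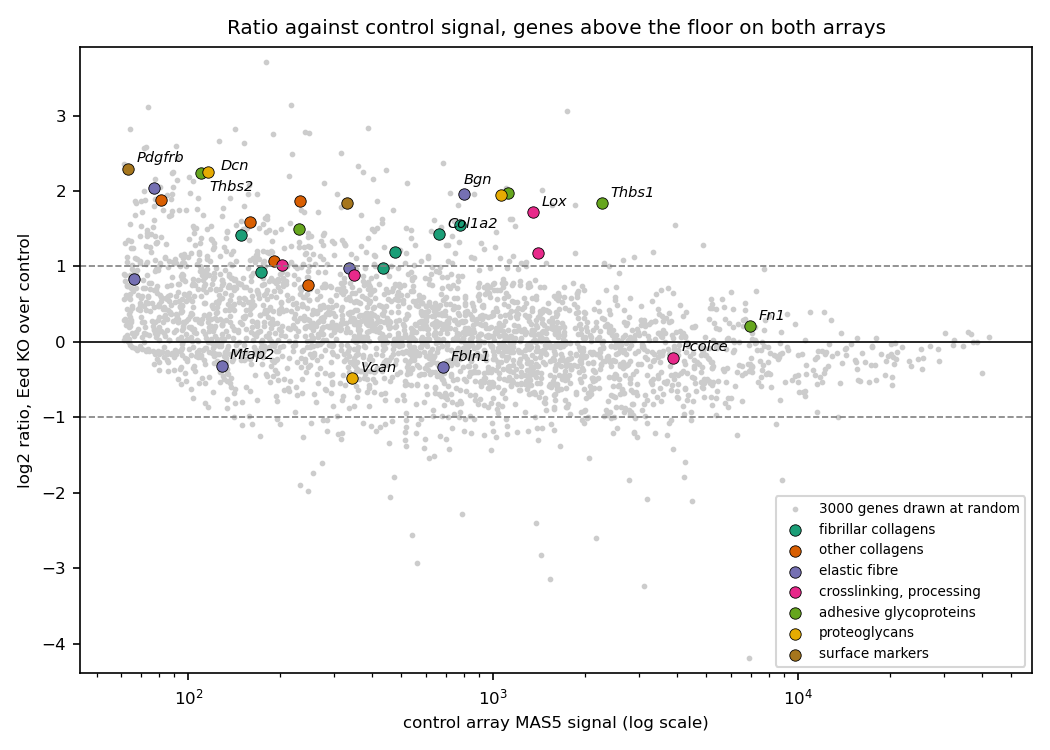
Log2 ratio, Eed KO over control, against control MAS5 signal (log scale) for the 32 matrix genes above the floor on both arrays (coloured by role) and 3000 genes drawn at random from all such genes (grey). Matrix genes above 2-fold occur from the floor up to Thbs1 at 2273, and Vcan, Fbln1, Mfap2, Pcolce and Fn1 lie near 0.

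By main probe sets, position along the chromosome did not go with a shared ratio in each case. By gene order in the RefSeq table, 3 pairs of members are adjacent protein-coding genes. Col3a1 and Col5a2 had similar log2 ratios of 1.41 and 1.54. Col6a2 and Col6a1 differed, at 0.76 and 1.88. However, the other Col6a2 probe set had 1.14, and Col6a1 had 0.84 under the raised floor. Dcn had one of 2.25, while its neighbour Lum was under the floor on both arrays.

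Some genes that make, modify or bind collagen were higher. All lists from here on are to be read beside the 10.8% of all measured genes called higher and the 3.27% called lower. Of 20 measured enzymes and helpers of collagen synthesis, 4 (20%) were at least 2-fold higher and 0 lower, with a median log2 ratio of 0.43. Bmp1, the procollagen C-proteinase, read 612.4 in the Eed KO and 150.3 in the control (4.07-fold higher). The prolyl hydroxylase gene P4ha2 was 2.62-fold higher and the prolyl 3-hydroxylase family gene P3h3 2.44-fold, and Tll1, a relative of Bmp1, was at least 2.17-fold higher. Pcolce, the enhancer of Bmp1, thus had a ratio below 1 while its enzyme had one of 4.07. Of 13 measured collagen and fibronectin receptors 4 (30.8%) were higher and 0 lower. They were the collagen receptor kinase Ddr2 (405.6 in the Eed KO and 90.5 in the control, 4.48-fold), Cd44 (3.76-fold), the endocytic collagen receptor Mrc2 (at least 2.90-fold) and Sdc4 (4.79-fold). The other Sdc4 probe set had a log2 ratio of -0.52, and the mean over both was under 2-fold (0.87). The other measured Cd44 probe sets had floored log2 ratios from 0.35 to 1.88. Under the raised floor P3h3 and Mrc2 were under 2-fold (log2 ratios of 0.53 and 0.08), and the bound for Tll1 was under 2-fold in 3 other scalings.

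Collagens outside the set were mostly dim. Of 11 measured, 1 was higher (Col13a1, 2.30-fold) and 1 lower (Col18a1, at 1626 in the Eed KO and 3399 in the control, log2 ratio -1.06). The share higher, 9.09%, was near the 10.8% of all measured genes. The median log2 ratio was 0.40. Of 17 measured basement membrane genes 3 (17.6%) were higher and 0 lower, with a median of 0.15 on the log2 scale. That median was -0.12 with both arrays scaled to the same median. The 3 were the paired type IV chains Col4a1 (2.48-fold) and Col4a2 (2.33-fold) and the laminin gene Lama3 (2.06-fold). Under some other scalings Col13a1, Col18a1 and Col4a2 did not reach 2-fold. Lama3 was under 2-fold in each of the other scalings and with a pseudocount.

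Further elastic fibre and crosslinking genes had 6 of 10 higher and 0 lower (median log2 ratio 1.25). They included Mmrn2 (4.20-fold), which belongs to the emilin family and is best known from endothelium, Emilin2 (3.28-fold) and the latent TGF-beta binding protein genes Ltbp2 (3.17-fold) and Ltbp3 (3.02-fold). Only 3 of 10 further leucine-rich proteoglycans were measured. Prelp was at least 2.89-fold higher and Podn 2.05-fold, and Kera, Epyc, Omd and Aspn were under the floor on both arrays, like Lum and Ogn. Under the raised floor Emilin2, Prelp and Podn were under 2-fold. Podn was also under 2-fold in each of the other scalings and with a pseudocount.

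Signal and transcription factor genes tied to matrix production also differed. Of 13 measured genes of the TGF-beta pathway, which drives matrix genes in fibroblasts, 5 were higher and 1 lower (median log2 ratio 0.74). The receptor gene Tgfbr3 was 6.37-fold higher, with a floored log2 ratio of 1.39 by its other measured probe set. The receptor gene Tgfbr2 was 4.61-fold higher, the target gene Ccn2 3.52-fold and the ligand gene Tgfb3 3.20-fold. The fifth was Tgfbi (2.15-fold), and the lower gene was Skil, for a repressor of TGF-beta signalling, at 2042 in the Eed KO and 5229 in the control. Under the raised floor Tgfb3 and Tgfbi were under 2-fold (log2 ratios of 0.35 and 0.14). Tgfbi reached 2-fold in only 2 of 9 other settings of scaling, floor, pseudocount and probe set rule. Tgfbi, Skil, and Foxf1 and Vim below, were named after their values were seen. Of 13 measured mesenchymal transcription factors 8 were higher and 1 lower (median log2 ratio 1.25). Prrx1, a factor of limb and face mesenchyme, was 6.84-fold higher, Twist2 4.56-fold and Osr2 at least 2.77-fold. Snai2 was 6.60-fold higher by its main probe set, which may be shared with other transcripts, and had a log2 ratio of 0.20 by the other. The lower gene was Foxf1, at 76.2 in the Eed KO and 161.3 in the control, while its other probe set had a log2 ratio of 0.84 and the mean over both was -0.12. Osr2 had a log2 ratio of 0.01 under the raised floor.

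**Figure D5:**
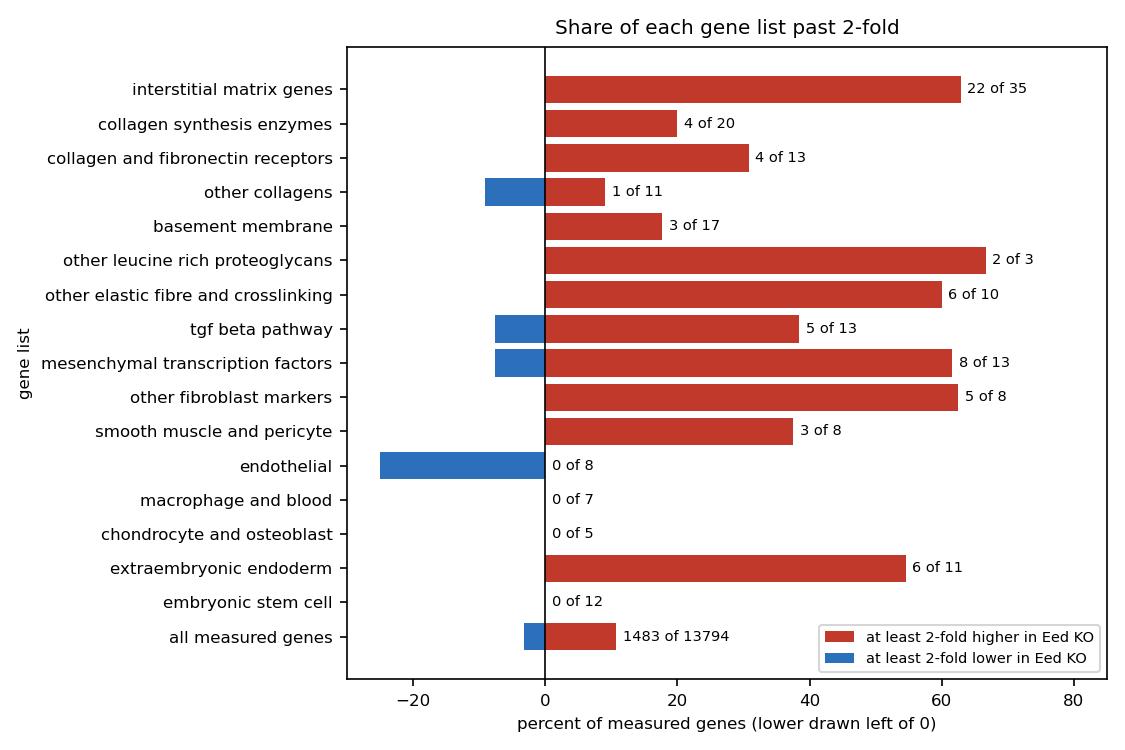
Percent of the measured genes of each list that were at least 2-fold higher (right of 0) or lower (left of 0) in the Eed KO than in the control, with counts of higher genes printed. The matrix genes stand at 22 of 35 and all measured genes at 1483 of 13794 (10.8%). The ES cell, endothelial, macrophage and chondrocyte lists, of only 5 to 12 measured genes each, show 0 higher.

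Markers of several cell types moved with the matrix genes. Of 8 measured fibroblast markers outside the set 5 were higher and 0 lower, and their summed signal was 24362 in the Eed KO and 11031 in the control. They were Ddr2, the calcium-binding protein gene S100a4 (3.57-fold), Nt5e (2.92-fold), Pdgfra (2.80-fold) and the intermediate filament gene Vim (2.36-fold). The other measured Nt5e probe sets had floored log2 ratios of 0.22 and 1.77. Most of the sum was Vim (11776 in the Eed KO and 4989 in the control) and Sparc (9189 in the Eed KO and 4654 in the control, 1.97-fold). Eng had a ratio below 1, at 298.8 in the Eed KO and 508.4 in the control (log2 ratio -0.77). With both arrays scaled to the same median, 1 gene of this list was called lower. Cd248, Dpt and Pi16 of that list, like Fap of the set, were under the floor on both arrays. Of 8 measured smooth muscle and pericyte markers 3 were higher (summed signal 20651 in the Eed KO and 10220 in the control): the smooth muscle actin gene Acta2 (10183 in the Eed KO and 4361 in the control), Lmod1 (at least 2.49-fold) and Des (2.01-fold). Myh11 and Rgs5 were under the floor on both arrays, and Mcam had a ratio below 1 (log2 ratio -0.62). Acta2 and Vim were under 2-fold with both arrays scaled to the same median, Lmod1 with a pseudocount and Pdgfra under the raised floor (log2 ratio 0.66). Des was under 2-fold in each of the other scalings and with a pseudocount. Of 11 measured extraembryonic endoderm markers 6 were higher (summed signal 7756 in the Eed KO and 3877 in the control), led by Sox17 (4.02-fold) and Sox7 (3.87-fold, log2 ratio of at least 0.05 by its other probe set), with Ttr under the floor. Sox7 had a log2 ratio of 0.97 under the raised floor. Dab2 had a log2 ratio of -0.44, with its other probe sets at -0.05 and 0.15. Of the 6, Pdgfra is also on the fibroblast list and Col4a1 on the basement membrane list, and Col4a1 alone read 3216 in the Eed KO and 1295 in the control. Sparc, Eng, Mcam and Dab2 were named after their values were seen. The part of these cell types in the matrix result was not tested. More cells of a type and more RNA per cell cannot be told apart in bulk RNA.

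No gene of the endothelial, blood, skeletal or ES cell lists was called higher by its brightest probe set. Across all measured genes 10.8% were called higher. These lists hold only 5 to 12 measured genes each, so a count of 0 does not set any of them apart from all genes. Endothelial markers had 0 of 8 higher (summed signal 1581 in the Eed KO and 1971 in the control). The junction genes Cldn5 (81.8 in the Eed KO and 224.5 in the control) and Esam (124.2 in the Eed KO and 259.0 in the control) were lower, at log2 ratios of -1.46 and -1.06, but not with a pseudocount or under the raised floor, with Emcn and Tie1 under the floor on both arrays. Macrophage and blood markers had 0 of 7 higher and 0 lower (2703 in the Eed KO and 2458 in the control), with Ptprc, Itgam and Fcer1g under the floor. Most of that sum was Laptm5 (1354 in the Eed KO and 1460 in the control) and Cd68 (642.8 in the Eed KO and 623.5 in the control). Csf1r, the receptor of macrophage growth factor CSF1, had a log2 ratio of 0.81 by its main probe set but 1.67 and 1.91 by the others. Cd14 (105.3 in the Eed KO and 11.5 in the control), Lyz2 (105.0 in the Eed KO and 47.4 in the control) and Tyrobp (76.5 in the Eed KO and 5.6 in the control) were above the floor in the Eed KO alone, and with a floor at the 25th percentile 3 genes of this list were called higher. Chondrocyte and osteoblast markers had 0 of 5 higher and 0 lower (1487 in the Eed KO and 1568 in the control), with Col2a1, Matn1, Hapln1 and Ibsp under the floor. ES cell markers had 0 of 12 past 2-fold in either direction (142281 in the Eed KO and 139268 in the control), with 8 of 12 ratios below 1 and a median log2 ratio of -0.26. The sum was led by Dppa5a (45754 in the Eed KO and 42021 in the control). Dppa3 and Lin28a were close to 2-fold lower, at log2 ratios of -0.99 and -0.97, the other Lin28a probe set at 0.15, and further probe sets of Sall4 and Utf1 had -1.55 and -1.57. Sox2 had a log2 ratio of -0.47. In the other direction, Nanog read 14393 in the Eed KO and 8007 in the control (1.80-fold higher). Zfp42 read 19195 in the Eed KO and 11182 in the control (1.72-fold higher). Esrrb had a log2 ratio of 0.45, with its other probe sets at -0.39 and 0.04. The macrophage and ES cell genes other than Pou5f1, Sox2 and Nanog were named after their values were seen. Pou5f1, for Oct4, read 11352 in the Eed KO and 12948 in the control.

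For the arrays as a whole, the median signal was 108.1 in the Eed KO and 87.4 in the control, and 62.6% of probe sets were above the floor in the Eed KO and 57.4% in the control. The ratio of 3′ to 5′ signal of Gapdh was 0.788 in the Eed KO and 0.791 in the control. The hybridization spikes had a median ratio of 1.05 and the poly-A spikes of 1.15. The Eed probe set read 11456 in the Eed KO and 10101 in the control. As the place of the disruption is not given, this signal checks nothing about the label.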

How the data were processed

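The deposited table holds 1 intensity per probe set and array on a linear scale. Per the submitters' processing notes these were computed with MAS5, and they were scaled before deposit: a mean trimmed by 2% of probe sets at each end was 500 on each array. The table used here has no detection calls. Names came from GEO's annotation of the platform, and 932 with several symbols and 9160 without one were left unnamed.

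The floor was the 40th percentile of the signals of the arrays pooled, control features left out, and a ratio against a signal under it is given as "at least". Ratios were computed with Python 3.11.15, pandas 2.3.3 and numpy 2.4.6, and the steps were tested on simulated data. No test was made, as each group is 1 array and the number of arrays limits the precision. All measured members were named, and from each other list up to 4 genes with the largest ratios past 2-fold. Members, gene lists and settings were chosen with earlier results of these data known. Printed promoters were chosen after ratios were seen. Promoters came from RefSeq, GRCm38.p6. All 42 symbols were in its gene table.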

Additional observations from a re-analysis of the deposited data

How the results depend on the processing

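With 1 array per group no replicate could be left out. No paired analysis was possible because each group has 1 array. The count of 22 matrix genes at least 2-fold higher lay between 17 and 23 under other scalings, floors, probe set rules and a pseudocount, and 0 were lower in each. Under these alternatives 6.35% to 14% of all measured genes were higher and 2.54% to 7.53% lower. At 1.5-fold 29 matrix genes were higher, beside 23.3% of all measured genes, and at 3-fold 12, beside 3.53%. The median log2 ratio of 1.19 ranged from 0.90, with both arrays scaled to the same median, to 1.30. That scaling moved the median of all measured genes to -0.16, against 0.12 as deposited, and left the matrix genes 1.06 above it, as before. The SD over the genes lay between 0.67 and 0.80. Of the 22 calls at 2-fold 14 held under every other scaling, floor and probe set rule and with the pseudocount, and 8 did not: Col5a1, Col12a1, Serpinh1, Loxl3 and Efemp1 under some scalings (Col12a1 and Loxl3 also with a pseudocount, Col5a1 also as the mean over probe sets), and Col6a1, Fbln5 and Pdgfrb under a floor at the 60th percentile, at log2 ratios of 0.84, 0.92 and 0.89. Col1a1, Col11a1 and Col6a2 passed 2-fold under 1 alternative each. Fn1 went down to -0.09 and Fmod to -0.08, and Fbln1 had 0.22 as the mean over probe sets. The cause of these shifts was not tested. The same alternatives were run for the other lists after their values were seen. The mesenchymal factors had 5 to 8 genes higher, the collagen enzymes 2 to 6, the receptors 3 to 5, the further elastic fibre genes 3 to 7, the further proteoglycans 0 to 2, the basement membrane genes 1 to 4, the other collagens 0 to 4, the TGF-beta genes 3 to 5, the smooth muscle markers 1 to 3, the endoderm markers 3 to 7 and the macrophage markers 0 to 3. The fibroblast markers outside the set had 4 to 7 higher and 0 to 1 lower. ES cell and endothelial markers and the mesenchymal factors each had 0 to 3 lower. Within the set, the elastic fibre and the crosslinking genes each had 1 to 3 higher. Prelp and Emilin2 had log2 ratios of 0.08 and 0.81 under that higher floor.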
